A study of Mus musculus with 24 samples.

Results

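The comparison described here sets sleep-restricted mice against undisturbed mice at zeitgeber time 1 (ZT1, in hours after lights on) in the mediobasal hypothalamus. It rests on 6 of the 24 arrays of the series, chosen by title and description: 3 arrays of the timed sleep restriction group (TSR) and 3 of the control group (CON). The design text gives 3 mice for each group and time. In TSR mice, gentle handling prevented sleep between ZT0 and ZT6 for 5 days, then came 2 days of free sleep and a further 5 days of restriction, and CON mice were left undisturbed over the same period. Both groups carried the background strain that the labels spell C57BL76J. Neither sex and age nor the day of collection within the schedule is given in the sources used here. Of 35556 probe sets, 21789 carried 1 gene symbol, these held 19938 genes, and 11872 genes passed a filter on low values (mean of at least 5.86 log2 units) and were tested.

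The mediobasal hypothalamus holds the arcuate and ventromedial nuclei, whose neurons read hormones and nutrients from the blood and steer appetite, energy use, reproduction and growth. Sleep loss is known from other studies of rodent brain to change transcripts of the circadian clock, of glucocorticoid signalling and of protein folding in the endoplasmic reticulum (ER), of RNA-binding proteins that rise in the cold, and of lipid synthesis. Neurons, astrocytes, oligodendrocytes, vessels and ependyma all contribute RNA to such a piece of tissue, so fewer cells of a type and less RNA per cell cannot be told apart.

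TSR replicate 3 stood apart from the other 5 arrays of ZT1. Over all probe sets its interquartile range was 2.19 log2 units, against 3.12 to 3.27 in the other ZT1 arrays, and its median Spearman correlation with the 20 arrays of usual spread was 0.865, against 0.986 to 0.992 among those 20. Arrays with a range under 2.5 log2 units are called narrow below: besides TSR replicate 3 they are 1 TSR array of ZT13 and 2 CON arrays of ZT19. Among the genes tested, TSR replicate 3 had a median of 6.92 log2 units, while TSR replicates 1 and 2 had 7.67 and 7.65 and the CON arrays had 7.58, 7.62 and 7.59. It lay below all 3 CON values in 78.6% of genes and above all 3 in 16.2%. Each comparison is therefore given with all 24 arrays, which use all 3 TSR values, and without the 4 narrow arrays, which leaves TSR replicates 1 and 2 against 3 CON values and 20 arrays to estimate the spread. In the second fit, also leaving out TSR replicate 1 or 2 leaves 1 TSR array at ZT1. Counts below from such a fit rest on that array alone for TSR. Hypothalamic markers were present. Oxt and Avp, made by magnocellular neurons of the paraventricular and supraoptic nuclei, averaged 10.98 and 8.54 log2 units over the 24 arrays. These nuclei are not among those named above for the mediobasal hypothalamus. Tac2, a peptide of arcuate neurons, averaged 8.30. Pomc averaged 5.75 and lay just below the filter, together with Hcrt, Pmch, Lepr, Fos and Bdnf (4.25 to 5.85), and Agrp was not used here.

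**Figure D1:**
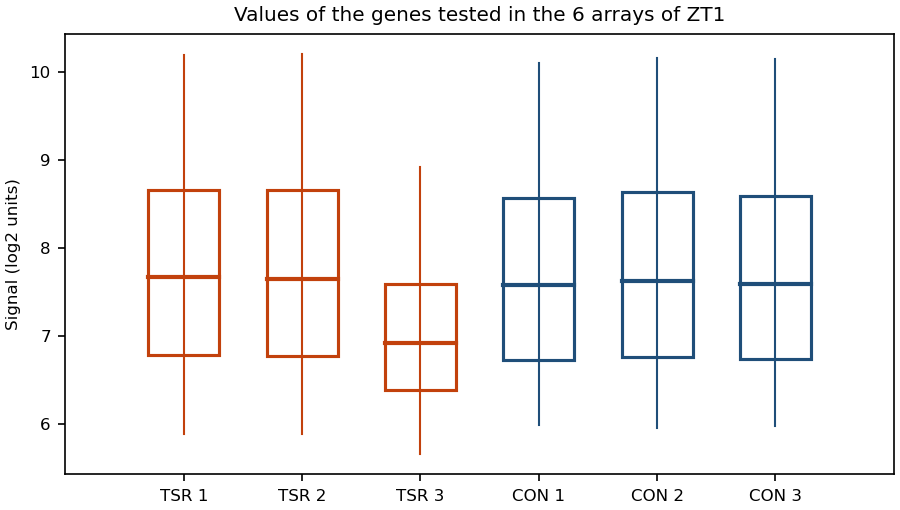
Signal of the genes tested, in log2 units, in the 3 TSR and 3 CON arrays of ZT1. Boxes span the quartiles with the median as a bar, and lines run from the 5th to the 95th percentile: TSR replicate 3 has a median of 6.92 log2 units, and the other 5 arrays have 7.58 to 7.67.

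With all arrays, 4 genes rose and 2 fell in TSR mice (limma, Benjamini-Hochberg adjusted p under 0.05). That is 0.0337% and 0.0168% of 11872 genes, and 487 genes had an unadjusted p under 0.05. The 4 that rose encode proteins of blood plasma: Alb (albumin), Serpina1c (a protease inhibitor), Apoa1 (an apolipoprotein of high-density lipoprotein) and Ttr (transthyretin, which carries thyroid hormone and is also made by the choroid plexus). The 2 that fell were n-R5s136, a gene of the 5S ribosomal RNA, and Fabp7, which carries fatty acids in radial glia and astrocytes.

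n-R5s136 had 8.36, 8.18 and 8.55 log2 units in TSR mice and 10.60, 10.50 and 10.43 in CON mice. All 3 TSR values lay about 2 log2 units below every CON value, replicate 3 included, and the difference was -2.14 ± 0.25 (SE; adjusted p = 0.000462). Since 5S genes are near-identical copies, the signal cannot be assigned to 1 of them. Fabp7 had 6.50, 6.33 and 6.05 log2 units in TSR mice and 7.47, 7.64 and 7.57 in CON mice, again with no overlap, and fell by 1.26 ± 0.23 log2 units (adjusted p = 0.0373). All 3 TSR values lay below all 3 CON values in 12.8% of all genes. Alb had 10.17, 9.65 and 7.31 log2 units in TSR mice and 5.855, 5.84 and 5.51 in CON mice and passed (adjusted p = 0.00442). Its 3 TSR values differed from each other by over 2 log2 units, far more than the 3 CON values did. Serpina1c had 8.93, 8.90 and 5.65 log2 units in TSR mice and 3.25, 4.84 and 4.28 in CON mice and passed (adjusted p = 0.0279). All CON values of Alb, Serpina1c and Ttr lay below the filter (5.8615). These genes were thus tested through their TSR values, and the sizes of their differences are not given. Apoa1 rose by 1.67 ± 0.30 (adjusted p = 0.0373), and Ttr passed (adjusted p = 0.0373).

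Of 18 genes of a plasma protein list on the array, 7 passed the filter on low values, 3 of them with a CON mean below it, so their being tested rests on the TSR values and their count is not read. With no filter, 15 of the 18 rose and 0 fell without the narrow arrays (median difference 1.15 log2 units). Over all 19938 genes, 778 rose and 368 fell in that setting (median -0.03). The blood cell list had 2 tested members, of which 0 passed limma's threshold and 0 had an unadjusted p under 0.05. Whether plasma in the tissue, vessels or local synthesis gave this signal was not tested. Gnrh1, which encodes the releasing hormone of the reproductive axis, came next: it had 7.25, 7.25 and 6.62 log2 units in TSR mice and 6.16, 6.10 and 6.08 in CON mice, without overlap. Its rise of 0.92 ± 0.18 with all arrays did not pass (adjusted p = 0.07), and without the narrow arrays it rose by 1.13 ± 0.10 (adjusted p = 6.23e-07). The count with all arrays moved by more than 1.5 times when any single ZT1 array but TSR replicate 3 was left out. It was 2 without TSR replicate 1, 1 without TSR replicate 2, 2 without CON replicate 1, 3 without CON replicate 2 and 1 without CON replicate 3. The count was 8 without TSR replicate 3, a smaller change. Quantile normalization gave 23 genes, of which 39.1% were higher against 66.7% as deposited, and centring on medians gave 15 with 40% higher.

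**Figure D2:**
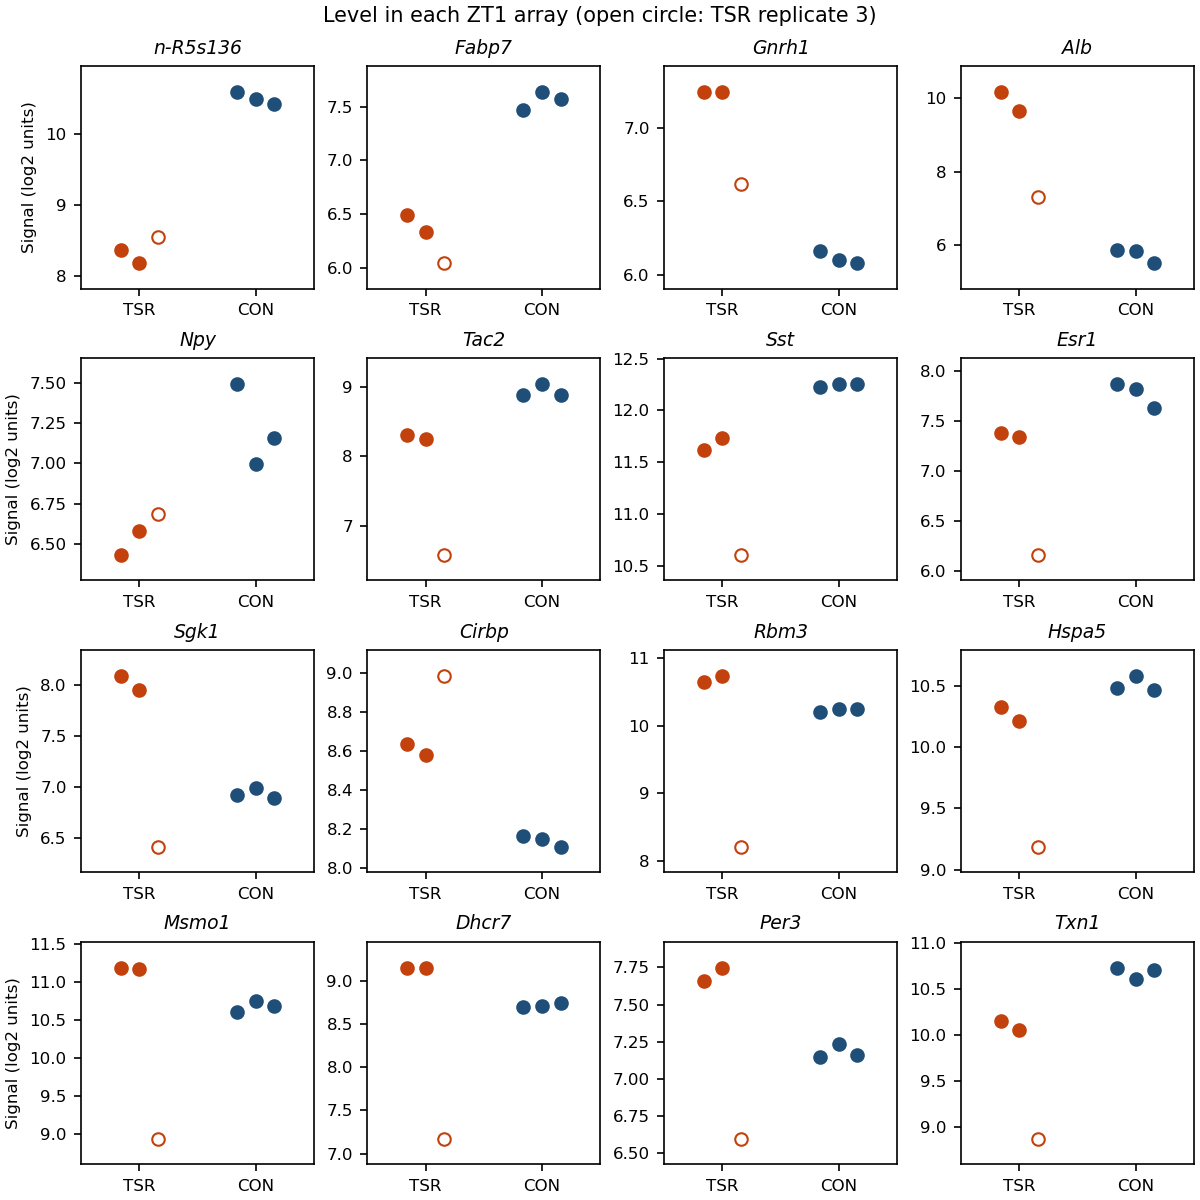
Signal in log2 units of 16 genes in each ZT1 array, TSR on the left and CON on the right of each panel, with TSR replicate 3 as an open circle. In n-R5s136, Fabp7, Cirbp and Npy the open circle lies on the side of the other 2 TSR values, while in Sgk1, Rbm3, Msmo1, Dhcr7 and Per3 it lies on the far side of the CON values.

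Without the narrow arrays, 830 genes (6.99%) rose and 370 (3.12%) fell in TSR mice, and 3206 had an unadjusted p under 0.05. The median residual SD was 0.111 log2 units, against 0.361 with all arrays. With only TSR replicate 3 left out of the 24 arrays, limma called 8 genes. Of the 830 higher genes, 504 had a difference below 0 once replicate 3 was included, and in 757 replicate 3 lay below every CON value. Of the 370 lower genes, 10 turned positive. All 3 TSR values lay above all 3 CON values in 277 genes (2.33%) and below them in 1517 (12.8%), and 52 of the higher and 302 of the lower genes were among these. Since replicate 3 lay below all CON values in most genes, a lack of overlap adds little for a gene that fell. The count was 355 without TSR replicate 1, 269 without TSR replicate 2, 627 without CON replicate 1 and 743 without CON replicate 3. The share of higher genes was 69.2% as deposited, 52.8% after quantile normalization and 49.2% after centring on medians.

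Genes that rose and lay above every CON value in all 3 TSR arrays included the following beside those already named. 9530091C08Rik, a transcript without a described function here, had 8.32, 8.31 and 7.58 log2 units in TSR mice and 7.14, 7.53 and 7.37 in CON mice and rose by 0.97 ± 0.13 (adjusted p = 0.000125). Apoa2, a further apolipoprotein, rose by 1.16 ± 0.12, and Serpind1, a plasma inhibitor of thrombin, by 0.63 ± 0.17. Ppih, a cyclophilin of the spliceosome, had 8.05, 8.17 and 8.08 log2 units in TSR mice and 7.51, 7.65 and 7.50 in CON mice, with no overlap, and rose by 0.56 ± 0.10 (adjusted p = 0.00156). Ninj2, an adhesion protein found in glia, rose by 0.61 ± 0.11, and Phactr4, a regulator of protein phosphatase 1 and actin, by 0.61 ± 0.12. Thyn1 rose by 0.53 ± 0.15, Ube2n, a ubiquitin-conjugating enzyme, by 0.56 ± 0.17, and 4930578G10Rik by 0.56 ± 0.12.

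Genes that fell and lay below every CON value in all 3 TSR arrays included several with known roles in neurons. Hpca, the calcium sensor hippocalcin, had 8.31, 7.78 and 7.26 log2 units in TSR mice and 8.85, 9.17 and 8.96 in CON mice and fell by 0.95 ± 0.15 (adjusted p = 0.000473). Meis2, a homeobox factor of forebrain neurons, had 7.63, 7.71 and 5.84 log2 units in TSR mice and 8.53, 8.60 and 8.52 in CON mice and fell by 0.88 ± 0.10 (adjusted p = 2e-05). Both were chosen for lying below every CON value in each TSR array, which held in 302 of all 370 genes that fell. Nr2f2, an orphan nuclear receptor that patterns the forebrain, fell by 0.74 ± 0.09, and Crabp1, which binds retinoic acid, by 0.66 ± 0.15. Unc13c, which primes synaptic vesicles, fell by 0.80 ± 0.15, Kcnv1, a silent potassium channel subunit, by 0.79 ± 0.15, Nxph1, a neurexin ligand, by 0.78 ± 0.12, and Gabra2, a subunit of the GABA-A receptor, by 0.77 ± 0.10. Necab1, a calcium-binding protein, fell by 0.72 ± 0.07, Robo2, a receptor for Slit guidance cues, by 0.71 ± 0.08, Rph3a, which binds Rab3 on vesicles, by 0.65 ± 0.07, and Ccdc85c by 0.72 ± 0.12. Npy, the orexigenic neuropeptide Y, fell by 0.71 ± 0.18 (adjusted p = 0.0153). Leaving out TSR replicate 1 or 2 kept 15 and 14 of these 22 calls, and leaving out CON replicate 1, 2 or 3 kept 19, 20 and 19.

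Npy, Tac2, Kiss1 and other genes that mark the arcuate and ventromedial nuclei were lower in TSR mice. Of 15 tested members of that list, 6 fell and 0 rose without the narrow arrays, with a median difference of -0.32 log2 units against 0.04 over all genes. In that fit 3.12% of all genes fell and 6.99% rose. Lower counts were also seen for markers of the paraventricular and supraoptic nuclei (4 of 13) and of the suprachiasmatic nucleus (2 of 16), and for markers of cortex and thalamus, regions outside the labelled tissue (5 of 15, median -0.15). Whether the dissected pieces differed in their borders was not tested.

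Npy, made by arcuate neurons that drive feeding, had 6.43, 6.58 and 6.68 log2 units in TSR mice and 7.50, 6.996 and 7.16 in CON mice, and the groups did not overlap. Tac2, which encodes neurokinin B in neurons that control the reproductive axis, had 8.31, 8.24 and 6.59 log2 units in TSR mice and 8.88, 9.04 and 8.87 in CON mice and fell by 0.65 ± 0.14 (adjusted p = 0.00543). Both peptides were thus lower in every TSR array, as were 302 of all 370 genes that fell. Kiss1, an activator of GnRH neurons that arcuate cells make together with Tac2, had 5.64, 5.93 and 6.71 log2 units in TSR mice and 6.36, 6.16 and 6.20 in CON mice: replicates 1 and 2 lay below CON, while replicate 3 lay above, and the fall was 0.46 ± 0.14 (adjusted p = 0.045). Esr1, the oestrogen receptor alpha of ventromedial and arcuate neurons, fell by 0.42 ± 0.10, Th, the first enzyme of dopamine synthesis, by 0.36 ± 0.09, and Slc6a3, the dopamine transporter, by 0.59 ± 0.14. Cartpt, an anorexigenic peptide, differed by -0.10 ± 0.13 (adjusted p = 0.651) and Mc4r, the melanocortin receptor through which Pomc neurons act, by -0.16 ± 0.11 (adjusted p = 0.341). The list count was 2 without TSR replicate 1 and 0 without TSR replicate 2, and 3 without CON replicate 1 or 3.

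Across 25 tested neuropeptide genes 2 rose and 5 fell, and 4 and 5 after quantile normalization. Over all genes 6.99% rose and 3.12% fell. Sst, which encodes somatostatin, the inhibitor of growth hormone release, had 11.62, 11.73 and 10.60 log2 units in TSR mice and 12.22, 12.25 and 12.26 in CON mice. It fell by 0.57 ± 0.05 (adjusted p = 4.46e-07). Each TSR value lay below each CON value, as in 302 of all 370 genes that fell. Cck, which encodes cholecystokinin, had 6.95, 6.98 and 6.19 log2 units in TSR mice and 7.54, 7.43 and 7.62 in CON mice and fell by 0.57 ± 0.09 (adjusted p = 0.000431). Penk, which encodes the enkephalins, rose with Gnrh1, by 0.28 ± 0.05 (adjusted p = 0.00065), but stood at 9.20 in TSR replicate 3. Sim1 and Otp, transcription factors of the paraventricular lineage, fell by 0.42 ± 0.08 and 0.29 ± 0.09, and Ntng1, an axon guidance protein, by 0.39 ± 0.11. Rgs16, a regulator of G protein signalling in the suprachiasmatic nucleus, fell by 0.35 ± 0.08, and Lhx6, a factor of some inhibitory neurons, rose by 0.32 ± 0.08. Among receptors for peptides and hormones 3 of 32 rose and 2 fell: Avpr1a, a vasopressin receptor, rose by 0.67 ± 0.10 (adjusted p = 0.000317), Galr1, a galanin receptor, fell by 0.46 ± 0.14 and Cckbr, a receptor for cholecystokinin, by 0.37 ± 0.10.

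The cortex and thalamus markers that fell were Lamp5 (0.63 ± 0.14), Tcf7l2 (0.46 ± 0.09), Foxp2 (0.41 ± 0.09), Nrgn (0.41 ± 0.08) and Camk2a (0.26 ± 0.08), all in log2 units. Tcf7l2, a Wnt effector abundant in thalamus, had 7.49, 7.53 and 6.73 log2 units in TSR mice and 7.93, 7.90 and 8.08 in CON mice. Lamp5, a lysosomal protein of some cortical neurons, had 7.67, 7.77 and 7.06 log2 units in TSR mice and 8.38, 8.38 and 8.29 in CON mice. In both the groups did not overlap, as in 302 of all 370 genes that fell. Slc17a7, the vesicular glutamate transporter that defines cortical projection neurons, averaged 6.28 log2 units over all arrays, near the filter. Among the 23 genes named here as having passed, 10 did so without TSR replicate 1, 8 without TSR replicate 2, and 16, 17 and 16 without CON replicate 1, 2 or 3. Including the narrow arrays turned the sign of the difference in 3 of these 23.

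**Figure D3:**
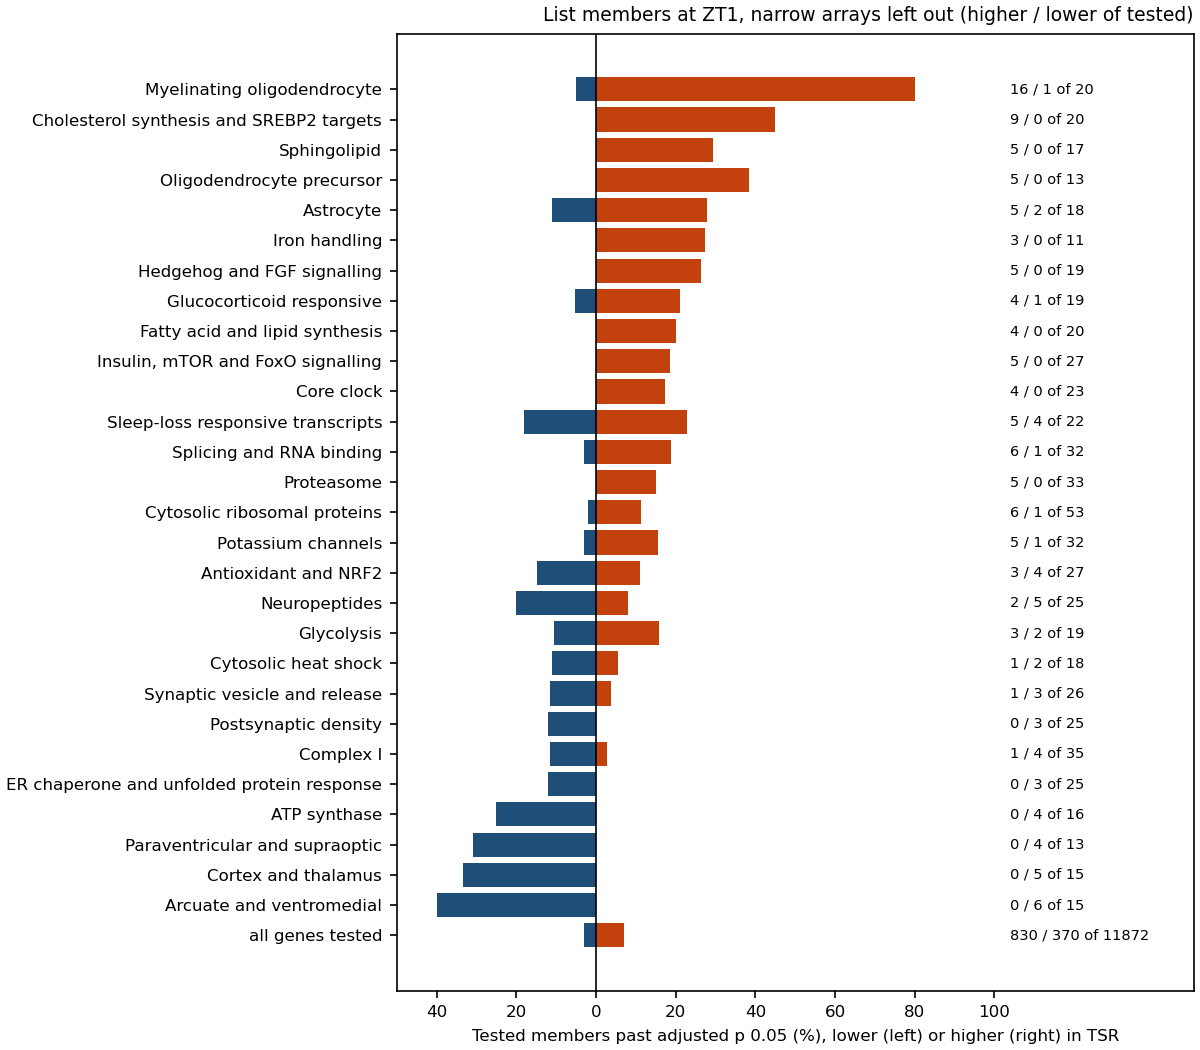
Share of tested members of 28 gene lists and of all genes that passed adjusted p 0.05 without the narrow arrays, with lower in TSR to the left and higher in TSR to the right, and the counts at the right edge. Oligodendrocyte (16 of 20) and cholesterol synthesis (9 of 20) genes lie to the right, and arcuate and ventromedial markers (6 of 15) to the left.

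Snap25, Dlg4, Gabra2 and other synaptic genes fell in TSR mice, and several potassium channel genes rose. Of 26 genes of synaptic release 1 rose and 3 fell, and of 25 in the postsynaptic list 0 rose and 3 fell, against 6.99% higher and 3.12% lower over all genes. Of 32 potassium channel genes 5 rose and 1 fell. Glutamate receptors had 1 higher and 1 lower of 25, and receptors for GABA and glycine 1 and 1 of 19. After quantile normalization these receptor lists had 1 higher and 4 lower, and 2 and 4, and after centring on medians 1 and 5, and 2 and 4.

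Snap25, a SNARE protein of the vesicle fusion machine, had 11.67, 11.61 and 10.32 log2 units in TSR mice and 11.89, 11.81 and 12.01 in CON mice and fell by 0.26 ± 0.06 (adjusted p = 0.0107). Rph3a had 8.99, 9.12 and 8.35 log2 units in TSR mice and 9.77, 9.72 and 9.65 in CON mice and Unc13c 8.50, 8.84 and 8.16 log2 units in TSR mice and 9.26, 9.71 and 9.43 in CON mice, with no overlap in any of these 3 genes, as in 302 of all 370 genes that fell. Cplx1, a complexin that clamps fusion, rose by 0.35 ± 0.08. Dlg4, the scaffold PSD-95, fell by 0.32 ± 0.07, Dlgap3, which binds it, by 0.36 ± 0.10, and Camk2a, the kinase of synaptic plasticity, by 0.26 ± 0.08. Gabra2 had 7.73, 7.62 and 6.71 log2 units in TSR mice and 8.32, 8.61 and 8.40 in CON mice and fell by 0.77 ± 0.10 (adjusted p = 8.35e-05). All TSR values of this gene lay below all CON values. Cnih3, an auxiliary protein of AMPA receptors, fell by 0.55 ± 0.11, while Grid1, a delta glutamate receptor, rose by 0.29 ± 0.09 and Slc12a2, which loads neurons with chloride, by 0.36 ± 0.09. Nefl, the light neurofilament, had 9.04, 9.12 and 7.67 log2 units in TSR mice and 9.70, 9.80 and 9.60 in CON mice and fell by 0.62 ± 0.08 (adjusted p = 0.000125).

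The potassium channel genes that rose were Kcna6 (0.43 ± 0.08), Kcnj10, the inward rectifier of astrocytes and oligodendrocytes (0.38 ± 0.09), Kcnb2 (0.32 ± 0.09), Kcnn2, a calcium-activated channel (0.26 ± 0.07), and Kcnip4, a channel-interacting protein (0.25 ± 0.07), and Kcnab1, a beta subunit, fell by 0.36 ± 0.09. Among sodium and calcium channel genes Scn8a rose by 0.38 ± 0.10 and Itpr2, the inositol trisphosphate receptor of astrocytes, by 0.39 ± 0.08, and Cacna2d3 fell by 0.33 ± 0.09. Of the receptors for monoamines, Htr1a, the inhibitory serotonin receptor, had 7.80, 7.88 and 6.79 log2 units in TSR mice and 7.33, 7.22 and 7.09 in CON mice and rose by 0.63 ± 0.13 (adjusted p = 0.00402). Drd3, a dopamine receptor, rose by 0.48 ± 0.10, and Hrh1, the receptor through which histamine promotes wakefulness, had 7.23, 7.11 and 7.10 log2 units in TSR mice and 7.48, 7.46 and 7.59 in CON mice and fell by 0.34 ± 0.09 (adjusted p = 0.0229). Hrh1 did not overlap between groups, as in 302 of all 370 genes that fell, whereas Htr1a did once replicate 3 was counted. Of these 24 genes, 12 still passed without TSR replicate 1, 6 without TSR replicate 2, and 13, 20 and 17 without CON replicate 1, 2 and 3. In 9 of the 24, the difference had the opposite sign with all arrays. After quantile normalization the release list had 1 higher and 6 lower, the postsynaptic list 0 and 5, and the potassium channel list 5 and 3. The potassium channel list had 2 higher without TSR replicate 1 or CON replicate 3 and 1 without TSR replicate 2 or CON replicate 1.

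Sgk1, the kinase that glucocorticoids and osmotic stress induce, was the most increased gene of the stress lists. It had 8.09, 7.95 and 6.41 log2 units in TSR mice and 6.91, 6.98 and 6.88 in CON mice: replicates 1 and 2 lay about 1 log2 unit above every CON value and replicate 3 below them. Without the narrow arrays it rose by 1.09 ± 0.11 (adjusted p = 2.68e-06). Of 19 tested genes that respond to glucocorticoids, 4 rose and 1 fell, with a median of 0.20 log2 units. The shares over all genes were 6.99% higher and 3.12% lower. Beside Sgk1 the list members that rose were Per1, which also belongs to the clock (0.45 ± 0.09), Tsc22d3, the mediator GILZ (0.43 ± 0.11), and Zbtb16, a zinc finger repressor (0.35 ± 0.09). Mt2, a metallothionein, fell by 0.30 ± 0.09. Fkbp5, a co-chaperone of the receptor, had 6.99, 7.16 and 6.39 log2 units in TSR mice and 6.82, 6.96 and 6.86 in CON mice and a difference of 0.20 ± 0.09 (adjusted p = 0.173). Without TSR replicate 2, 1 member of the list passed as higher, and 3 did without TSR replicate 1.

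Cirbp and Rbm3, RNA-binding proteins that rise when temperature falls, were both higher. Cirbp had 8.64, 8.58 and 8.99 log2 units in TSR mice and 8.16, 8.15 and 8.11 in CON mice, with all 3 TSR values above all CON values, and rose by 0.47 ± 0.09 (adjusted p = 0.00309). Rbm3 had 10.65, 10.74 and 8.21 log2 units in TSR mice and 10.20, 10.25 and 10.24 in CON mice, so replicate 3 went the opposite way, and rose by 0.46 ± 0.07 (adjusted p = 0.000195). The 2 genes therefore differed in how replicate 3 behaved. That array lay above all 3 CON values in 16.2% of all genes, and all 3 TSR values did in 2.33%.

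In the list of ER chaperones and the unfolded protein response 0 of 25 rose and 3 fell (median 0.02), against 6.99% and 3.12% over all genes. Hspa5, the ER chaperone BiP, had 10.33, 10.22 and 9.19 log2 units in TSR mice and 10.48, 10.59 and 10.47 in CON mice and fell by 0.24 ± 0.07 (adjusted p = 0.0329). Calr, the lectin chaperone calreticulin, had 11.17, 11.20 and 9.75 log2 units in TSR mice and 11.39, 11.46 and 11.45 in CON mice and fell by 0.25 ± 0.06 (adjusted p = 0.00821). Sdf2l1, a partner of BiP, had 6.92, 6.94 and 6.90 log2 units in TSR mice and 7.50, 7.42 and 7.49 in CON mice, close in all 3 TSR arrays, and fell by 0.54 ± 0.12 (adjusted p = 0.0067). In each of the 3 genes every TSR value lay below every CON value, as in 302 of all 370 genes that fell. Of 18 cytosolic heat shock genes 1 rose and 2 fell: Cryab, a small heat shock protein rich in oligodendrocytes, rose by 0.59 ± 0.10, and Hsp90aa1 and Hspa4l fell by 0.22 ± 0.04 and 0.26 ± 0.06. After quantile normalization 1 heat shock gene rose and 6 fell, and after centring on medians 1 and 5. Both ER and heat shock lists lost their lower calls without TSR replicate 1 (0 and 0), and without TSR replicate 2 they had 0 and 1.

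The immediate early genes, which mark recent neuronal activity, held 0 higher and 2 lower of 15 tested, against 6.99% and 3.12% over all genes. Nr4a2, an orphan nuclear receptor, fell by 0.36 ± 0.09 and Fosl2, an AP-1 subunit, by 0.34 ± 0.10. Egr1 had 6.62, 6.55 and 6.61 log2 units in TSR mice and 6.90, 6.85 and 6.79 in CON mice, with no overlap, as in 12.8% of all genes. Its difference of -0.26 ± 0.09 did not pass (adjusted p = 0.075). Homer1, a scaffold whose short form marks sleep loss in rodent cortex, differed by -0.04 ± 0.08 (adjusted p = 0.793). A list of 22 transcripts known from sleep loss studies, which holds several of the genes above, had 5 higher and 4 lower, and 3 and 0 without TSR replicate 1 or 2. Of the immediate early genes 0 passed without TSR replicate 1 or 2. Leaving out TSR replicate 1 or 2 kept 5 and 4 of these 15 calls, and leaving out CON replicate 1, 2 or 3 kept 12, 10 and 11. With TSR replicate 3 and the other narrow arrays included, the difference had the other sign in 1 of the 15 genes.

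The promoters of the ER chaperone genes are shown because the list moved in 1 direction where it passed. The ER stress response element, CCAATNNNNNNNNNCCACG on either strand, was found in 8 of 22 tested members that have a promoter sequence, against 0.119% of all 32851 promoter windows of the same length. A member was counted if any of its windows matched, whereas the percentage counts windows. A match describes the letters only and says nothing about a change at ZT1. The windows are from RefSeq (GRCm38.p6), lie mostly upstream of the start of the gene and reach a little past it, and are read 5′ to 3′ along its strand, with the element in capitals. That of Sdf2l1 holds no match. Hspa5 lies at chr2:34771840-34772139 on the + strand and Calr at chr8:84846882-84847181 on the - strand.
Hspa5: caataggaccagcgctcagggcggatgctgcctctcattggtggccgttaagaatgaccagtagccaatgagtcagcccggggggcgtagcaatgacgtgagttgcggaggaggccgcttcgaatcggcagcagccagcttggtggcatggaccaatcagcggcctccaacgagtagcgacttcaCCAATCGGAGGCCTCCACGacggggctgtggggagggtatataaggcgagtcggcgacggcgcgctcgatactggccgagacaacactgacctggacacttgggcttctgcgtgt
Calr: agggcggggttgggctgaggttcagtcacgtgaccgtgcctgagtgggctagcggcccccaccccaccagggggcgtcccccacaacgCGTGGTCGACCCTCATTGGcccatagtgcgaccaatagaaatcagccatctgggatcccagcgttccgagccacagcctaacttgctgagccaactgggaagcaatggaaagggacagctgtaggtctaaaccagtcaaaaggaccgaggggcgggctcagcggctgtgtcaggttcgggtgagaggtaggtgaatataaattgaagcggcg

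Of 23 tested genes of the core clock and its outputs, 4 rose and 0 fell without the narrow arrays, with a median of 0.11 log2 units against 0.04 over all genes. In the same fit 6.99% of all genes rose and 3.12% fell. Per3, a repressor of the clock, had 7.66, 7.75 and 6.60 log2 units in TSR mice and 7.15, 7.23 and 7.16 in CON mice and rose by 0.52 ± 0.07 (adjusted p = 0.000125). Ciart, a repressor of CLOCK and BMAL1, had 7.19, 7.20 and 6.54 log2 units in TSR mice and 6.42, 6.72 and 6.63 in CON mice and rose by 0.61 ± 0.11 (adjusted p = 0.00142). Per1, the period gene that also answers to light and hormones, had 8.02, 8.08 and 6.96 log2 units in TSR mice and 7.44, 7.74 and 7.62 in CON mice and rose by 0.45 ± 0.09 (adjusted p = 0.00356). In each, TSR replicates 1 and 2 lay above every CON value, while replicate 3 lay below them in Per1 and Per3 and among them in Ciart. Dbp, an output factor that binds D-boxes, had 8.71, 8.63 and 7.92 log2 units in TSR mice and 8.35, 8.38 and 8.29 in CON mice and rose by 0.33 ± 0.09 (adjusted p = 0.0177).

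Per2 had 7.17, 7.28 and 6.95 log2 units in TSR mice and 7.02, 6.88 and 7.05 in CON mice, and its difference of 0.24 ± 0.09 did not pass (adjusted p = 0.102). Nr1d1, the repressor REV-ERB alpha, differed by 0.11 ± 0.06 (adjusted p = 0.23) and Arntl, the activator BMAL1, by -0.13 ± 0.12 (adjusted p = 0.506). The list count was 3 without TSR replicate 1, 2 without TSR replicate 2 and 3 without CON replicate 3, and it stayed at 4 under both other scalings. With all arrays 0 of the 23 passed in limma, and 0 had an unadjusted p under 0.05. Among the 4 genes named here as having passed, 3 did so without TSR replicate 1, 2 without TSR replicate 2, and 4, 4 and 3 without CON replicate 1, 2 or 3.

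The clock works through short promoter elements that its own factors bind: the E-box (CACGTG), bound by CLOCK and BMAL1, and the D-box (TTATGTAA), bound by DBP and its relatives. Both strands were searched. An E-box was found in 6 of 20 clock genes with a promoter sequence, against 7.15% of all windows, and a D-box in 1 of 20, against 0.938%. Genes were counted if any window matched, whereas the percentages count windows. Of the 4 genes that rose, Ciart held 3 E-boxes, the upstream window of Per1 held 1, and Per3 held 2 D-boxes, while Dbp held neither in its window. The 3 windows with matches are printed below with the elements in capitals: Ciart at chr3:95882179-95882478 (- strand), Per1 at chr11:69098699-69098998 (+ strand) and Per3 at chr4:151044616-151044915 (- strand), all GRCm38.p6 from RefSeq.
Ciart: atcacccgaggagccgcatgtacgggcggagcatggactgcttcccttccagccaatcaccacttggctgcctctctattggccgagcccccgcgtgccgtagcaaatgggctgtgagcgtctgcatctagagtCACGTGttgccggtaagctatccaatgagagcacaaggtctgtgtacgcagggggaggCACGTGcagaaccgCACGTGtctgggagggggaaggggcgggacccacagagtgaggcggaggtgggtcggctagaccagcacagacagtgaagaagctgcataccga
Per1: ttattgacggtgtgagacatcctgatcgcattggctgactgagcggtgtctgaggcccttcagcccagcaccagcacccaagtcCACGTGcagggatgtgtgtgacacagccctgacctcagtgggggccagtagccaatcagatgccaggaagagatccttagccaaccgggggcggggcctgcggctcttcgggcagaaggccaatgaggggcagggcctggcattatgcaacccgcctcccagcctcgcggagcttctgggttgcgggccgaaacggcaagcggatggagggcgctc
Per3: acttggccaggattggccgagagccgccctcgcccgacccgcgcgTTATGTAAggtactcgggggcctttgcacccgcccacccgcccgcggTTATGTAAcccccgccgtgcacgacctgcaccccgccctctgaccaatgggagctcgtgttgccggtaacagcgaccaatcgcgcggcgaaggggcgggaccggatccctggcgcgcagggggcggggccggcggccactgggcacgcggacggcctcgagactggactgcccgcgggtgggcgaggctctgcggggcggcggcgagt

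Genes of cholesterol synthesis and other targets of SREBP2, the factor that senses sterol shortage, were higher: 9 of 20 tested members rose and 0 fell, with a median of 0.25 log2 units against 0.04 over all genes. Of all genes tested, 6.99% rose and 3.12% fell. Msmo1, a sterol demethylation enzyme, had 11.20, 11.18 and 8.94 log2 units in TSR mice and 10.61, 10.75 and 10.69 in CON mice and rose by 0.51 ± 0.08 (adjusted p = 0.000405). Dhcr7, the last reductase of the pathway, had 9.15, 9.15 and 7.17 log2 units in TSR mice and 8.69, 8.71 and 8.74 in CON mice and rose by 0.44 ± 0.07 (adjusted p = 0.000275). Within the 5 usual arrays the groups were far apart, and replicate 3 lay below every CON value in both. Fdft1, squalene synthase, rose by 0.51 ± 0.10, Sc5d, a desaturase, by 0.49 ± 0.09, Hsd17b7 by 0.44 ± 0.09, and Insig1, which holds SREBP in the ER, by 0.41 ± 0.10. The count was 9 under quantile normalization and under median centring, 3 without TSR replicate 1 and 4 without TSR replicate 2. With all arrays 0 passed in limma, and 0 had an unadjusted p under 0.05.

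Oligodendrocyte genes moved in the same arrays, where 6.99% of all genes rose and 3.12% fell. Of 20 tested myelinating oligodendrocyte markers 16 rose and 1 fell (median 0.48), with Mobp at 0.90 ± 0.10 and Mbp at 0.42 ± 0.07, and their mean level was 9.41, 9.41 and 7.44 log2 units in TSR mice and 8.95, 8.98 and 8.95 in CON mice. The part of these cells in the sterol genes was not tested. Sphingolipid genes, several of which make or turn over myelin galactolipids, had 5 higher and 0 lower of 17: Fa2h (0.57 ± 0.09), Ugt8a (0.51 ± 0.13), Cers2 (0.41 ± 0.09), Smpd1 (0.38 ± 0.10) and Asah1 (0.37 ± 0.11). Fa2h and Ugt8a are also in the oligodendrocyte list. In fatty acid and lipid synthesis 4 of 20 rose and 0 fell: Elovl7 (0.53 ± 0.10) and Elovl1 (0.39 ± 0.09), which lengthen fatty acids, Lpin1, a phosphatidate phosphatase (0.40 ± 0.10), and Acaca, the committed enzyme of fatty acid synthesis (0.38 ± 0.10). Without TSR replicate 1 the fatty acid list had 0 and the sphingolipid list 1, and without TSR replicate 2 they had 1 and 2.

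Genes that move cholesterol out of cells or carry it were split, with 5 of 16 higher and 3 lower, against 6.99% and 3.12% over all genes. Apod, an apolipoprotein of glia, had 10.01, 10.02 and 8.05 log2 units in TSR mice and 9.01, 9.17 and 9.11 in CON mice and rose by 0.92 ± 0.14 (adjusted p = 0.000275), Apoc1 rose by 0.64 ± 0.12 and Npc1, the lysosomal cholesterol exporter, by 0.31 ± 0.09. Cyp46a1, the neuronal enzyme that turns cholesterol into a form that leaves the brain, had 9.38, 9.36 and 7.89 log2 units in TSR mice and 9.80, 9.91 and 9.81 in CON mice and fell by 0.47 ± 0.08 (adjusted p = 0.000598). Its groups did not overlap, as in 302 of all 370 genes that fell. Scarb1, a lipoprotein receptor, fell by 0.37 ± 0.09 and Abcg1, a sterol exporter, by 0.26 ± 0.07. Fatty acid oxidation and ketone genes had 0 of 21 called in the same limma fit, with a median of 0.02 and 4 at an unadjusted p under 0.05. Of these 23 genes, 10 still passed without TSR replicate 1, 12 without TSR replicate 2, and 17, 20 and 18 without CON replicate 1, 2 and 3. Including the narrow arrays turned the sign of the difference in 14 of these 23.

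**Figure D4:**
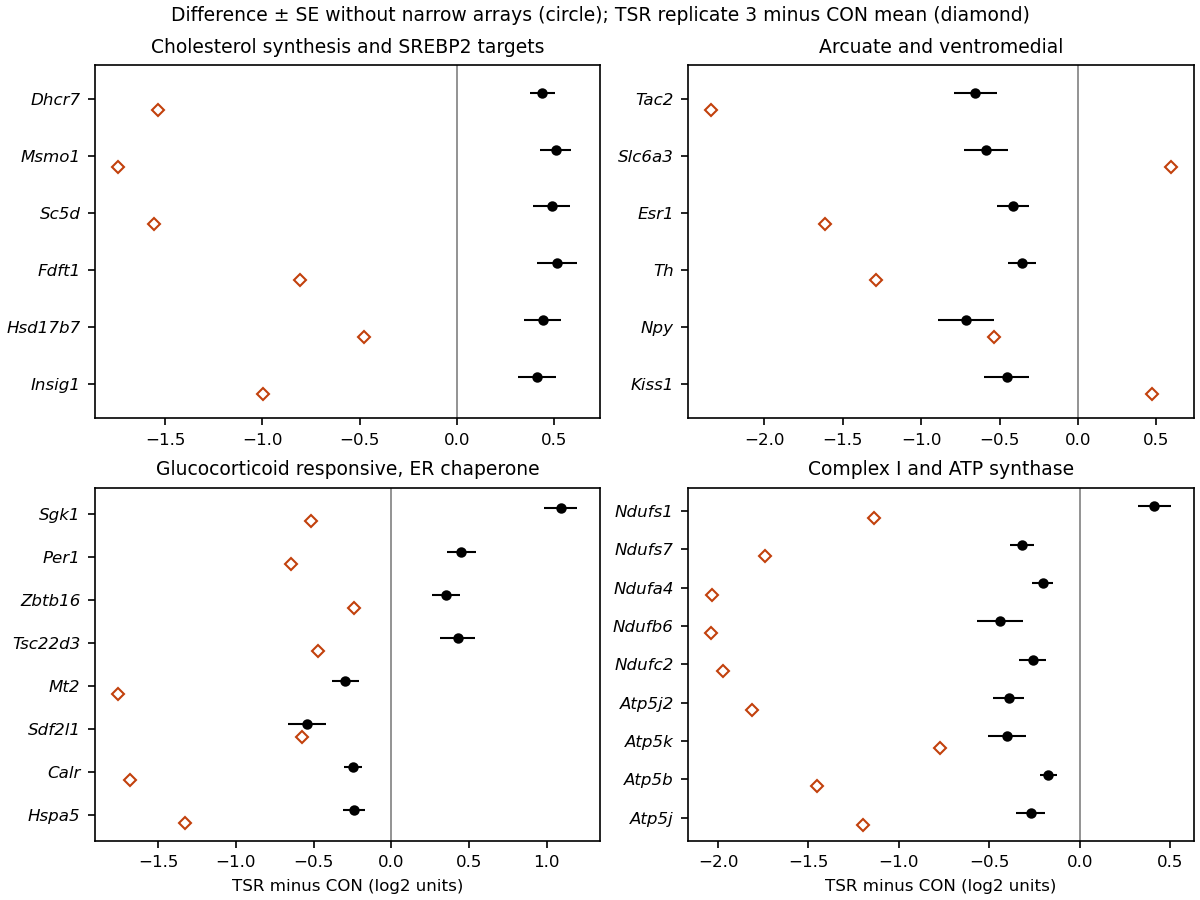
Difference of TSR minus CON in log2 units without the narrow arrays (circle, with its SE), and TSR replicate 3 minus the CON mean (diamond), for named members of 4 sets of lists. For the 6 cholesterol genes the circles lie between 0.41 and 0.51 and every diamond lies below 0; in the arcuate set the diamonds of Slc6a3 and Kiss1 lie above 0 against circles below it.

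Some subunits of the mitochondrial ATP synthase and of complex I, the first pump of the respiratory chain, fell in TSR mice. Of 16 ATP synthase genes 0 rose and 4 fell (median -0.08 log2 units), and of 35 complex I genes 1 rose and 4 fell (median -0.11), against 6.99% higher and 3.12% lower over all genes. Complexes II to IV had 2 higher and 1 lower of 24, and the TCA cycle 0 and 1 of 20. The differences were small.

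Ndufs7, an iron-sulphur subunit of complex I, had 9.59, 9.60 and 8.17 log2 units in TSR mice and 9.95, 9.92 and 9.87 in CON mice and fell by 0.32 ± 0.07 (adjusted p = 0.00423). Ndufa4 fell by 0.20 ± 0.06, Ndufb6 by 0.44 ± 0.13 and Ndufc2 by 0.26 ± 0.08, while Ndufs1, the largest subunit of the complex, rose by 0.41 ± 0.09. Atp5j2 had 9.53, 9.43 and 8.06 log2 units in TSR mice and 9.98, 9.82 and 9.82 in CON mice and fell by 0.39 ± 0.09 (adjusted p = 0.00592), with Atp5k at 0.40 ± 0.10, Atp5j at 0.27 ± 0.08 and the catalytic beta subunit Atp5b at 0.17 ± 0.05 lower. In 1 ZT1 array the decimal place of Atp5b had been restored, and with that value left blank the gene did not pass, which leaves 3 lower ATP synthase genes. Sdha, shared by complex II and the TCA cycle, fell by 0.24 ± 0.06. Replicate 3 lay below all CON values in 78.6% of all genes, so its low values here add little. Complex I had 1 higher and 9 lower after quantile normalization, 0 called without TSR replicate 1 or TSR replicate 2, and 1 higher and 1 lower without CON replicate 1 or 2. ATP synthase had 2 lower without TSR replicate 1 and 0 without TSR replicate 2.

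Glycolysis was split, with 3 of 19 higher and 2 lower, against 6.99% and 3.12% over all genes. Pgam1, an enzyme of lower glycolysis, had 9.54, 9.45 and 7.58 log2 units in TSR mice and 9.996, 9.92 and 9.82 in CON mice and fell by 0.42 ± 0.07 (adjusted p = 0.000435). Pgk1, which acts just before it and yields ATP, had 9.81, 9.79 and 8.57 log2 units in TSR mice and 10.24, 10.13 and 10.11 in CON mice and fell by 0.36 ± 0.06 (adjusted p = 0.00103). Neither overlapped between groups, as in 302 of all 370 genes that fell. Pfkfb3 and Pfkfb2, which make the activator of phosphofructokinase, rose by 0.26 ± 0.07 and 0.37 ± 0.10, and Slc16a1, a lactate transporter, by 0.33 ± 0.09. Among 13 glycogen genes Pygm, the phosphorylase that breaks glycogen down, had 8.92, 8.98 and 7.32 log2 units in TSR mice and 8.30, 8.45 and 8.34 in CON mice and rose by 0.58 ± 0.09 (adjusted p = 0.000258), and Ppp1r3d, a subunit that targets phosphatase to glycogen, fell by 0.40 ± 0.11.

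Antioxidant genes had 3 of 27 higher and 4 lower, against 6.99% and 3.12% over all genes. Txn1, thioredoxin, had 10.15, 10.06 and 8.87 log2 units in TSR mice and 10.73, 10.61 and 10.70 in CON mice and fell by 0.58 ± 0.09 (adjusted p = 0.000431), with no overlap, as in 302 of all 370 genes that fell. Its inhibitor Txnip rose by 0.40 ± 0.11. Cat, catalase, rose by 0.46 ± 0.09 and Gclc, which limits glutathione synthesis, by 0.30 ± 0.07, while Sod1, a superoxide dismutase, fell by 0.25 ± 0.08 and Mt2 by 0.30 ± 0.09. Leaving out TSR replicate 1 or 2 kept 7 and 5 of these 23 calls, and leaving out CON replicate 1, 2 or 3 kept 10, 17 and 15. In 7 of the 23, the difference had the opposite sign with all arrays.

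Insulin and growth factor receptors were among the genes that rose. In the list of insulin, mTOR and FoxO signalling 5 of 27 rose and 0 fell (median 0.14 log2 units), against 6.99% and 3.12% over all genes. Insr, the insulin receptor, had 9.13, 9.24 and 7.91 log2 units in TSR mice and 8.71, 8.92 and 8.90 in CON mice and rose by 0.34 ± 0.10 (adjusted p = 0.0344). Igf1r, the receptor for insulin-like growth factor 1, had 8.42, 8.33 and 6.43 log2 units in TSR mice and 7.95, 8.07 and 7.92 in CON mice and rose by 0.40 ± 0.08 (adjusted p = 0.00221). Foxo1, the transcription factor that insulin restrains, rose by 0.30 ± 0.07, Prkaa1, a catalytic subunit of the energy sensor AMPK, by 0.50 ± 0.11, and Mtor, the nutrient-sensing kinase, by 0.22 ± 0.07. The list had 1 higher without TSR replicate 1, 2 without TSR replicate 2 and 2 without CON replicate 3.

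Hedgehog and fibroblast growth factor genes had 5 of 19 higher and 0 lower, against 6.99% and 3.12% over all genes. Fgf18, a ligand, had 7.64, 7.67 and 7.48 log2 units in TSR mice and 7.20, 7.22 and 7.24 in CON mice, above every CON value in all 3 TSR arrays, and rose by 0.44 ± 0.09 (adjusted p = 0.00306). Gli1, the transcription factor that reports Hedgehog activity, had 6.53, 6.61 and 7.54 log2 units in TSR mice and 6.28, 6.28 and 6.17 in CON mice, likewise without overlap, and rose by 0.33 ± 0.08 (adjusted p = 0.0181). All 3 TSR values lay above all 3 CON values in 2.33% of all genes. Replicate 3 by itself lay above all 3 CON values in 16.2%, and in Gli1 it also stood above the other TSR values. Ptch1 and Hhip, which are Hedgehog targets and restrain the pathway, rose by 0.37 ± 0.07 and 0.38 ± 0.10, and the receptor Fgfr2 by 0.36 ± 0.09. Without TSR replicate 1 the list had 2 higher, without TSR replicate 2 it had 1, and 3 without CON replicate 1 or 3. Of growth factor receptors Lifr, the receptor for leukaemia inhibitory factor, rose by 0.67 ± 0.09 (adjusted p = 0.00017) and Erbb3, a neuregulin receptor, by 0.46 ± 0.10.

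Wnt genes had 1 of 27 higher and 3 lower, against 6.99% and 3.12% over all genes. Wnt7a, a ligand that acts on vessels and oligodendrocyte precursors, had 5.98, 5.80 and 5.54 log2 units in TSR mice and 6.46, 6.22 and 6.44 in CON mice and fell by 0.48 ± 0.12 (adjusted p = 0.0134). The receptor Fzd8 fell by 0.40 ± 0.10 and the nuclear effector Tcf7l2 by 0.46 ± 0.09, and Sfrp2, a secreted modulator, rose by 0.48 ± 0.12. In the MAP kinase list Rasgrp1, a Ras activator, rose by 0.50 ± 0.11, and Map2k2, the kinase MEK2, and Spry1, an inhibitor of receptor signalling, fell by 0.35 ± 0.09 and 0.34 ± 0.10. Axon guidance genes had 5 of 36 higher and 4 lower, with Robo2 at 0.71 ± 0.08 lower and Sema3c at 0.42 ± 0.10 higher. Notch genes (19 tested) and TGF-beta and BMP genes (25 tested) had 0 called in the limma fit, with 5 of each list at an unadjusted p under 0.05. Autophagy genes (26 tested) and DNA damage genes (15 tested) also had 0 called, with 4 and 1 at an unadjusted p under 0.05. Among the 21 genes named here as having passed, 9 did so without TSR replicate 1, 7 without TSR replicate 2, and 12, 19 and 14 without CON replicate 1, 2 or 3. With TSR replicate 3 and the other narrow arrays included, the difference had the other sign in 12 of the 21 genes.

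Glial and vascular genes changed in both directions. Of 18 astrocyte markers 5 rose and 2 fell, against 6.99% higher and 3.12% lower over all genes. After centring on medians 5 of these markers rose and 4 fell, and after quantile normalization 4 and 3. Gfap, the intermediate filament of astrocytes, had 9.40, 9.56 and 6.69 log2 units in TSR mice and 8.54, 8.75 and 8.39 in CON mice and rose by 0.92 ± 0.14 (adjusted p = 0.000402). Aqp4, the water channel of astrocyte endfeet, rose by 0.41 ± 0.08, Agt, angiotensinogen, by 0.44 ± 0.07, and Gjb6, a gap junction protein, by 0.61 ± 0.13. Slc1a2, the main glutamate transporter, had 10.99, 10.90 and 9.30 log2 units in TSR mice and 11.27, 11.28 and 11.27 in CON mice and fell by 0.33 ± 0.05 (adjusted p = 0.000258) together with Fabp7. In 1 ZT1 array the decimal place of Slc1a2 had been restored, and the gene still passed with that value left blank. Vim, a filament of tanycytes and reactive astrocytes, rose by 0.53 ± 0.08. Of 13 oligodendrocyte precursor markers 5 rose and 0 fell, with Bcas1 at 0.89 ± 0.17 and Enpp6, a mark of newly forming oligodendrocytes, at 0.85 ± 0.12. Quantile normalization gave that list 5 higher and 2 lower.

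Of 13 microglial genes 0 rose and 2 fell, against 6.99% higher and 3.12% lower over all genes, and 0 passed without TSR replicate 2. Cx3cr1, the fractalkine receptor that defines microglia, had 7.02, 7.01 and 6.73 log2 units in TSR mice and 7.59, 7.51 and 7.41 in CON mice and fell by 0.49 ± 0.10 (adjusted p = 0.00402), and C1qa, a complement subunit that microglia make, fell by 0.28 ± 0.09. In both genes the groups did not overlap, as in 302 of all 370 genes that fell. Among genes of innate defence 1 of 12 cytokine and NF-kB genes and 1 of 11 interferon genes rose, near the share over all genes. Of 8 complement genes 2 rose and 1 fell. Tnfaip6, a hyaluronan-binding protein induced by inflammation, had 7.82, 7.73 and 6.35 log2 units in TSR mice and 6.74, 6.92 and 6.86 in CON mice and rose by 0.94 ± 0.12 (adjusted p = 6.31e-05). Ifitm3, an antiviral membrane protein found in endothelium, had 7.08, 6.95 and 5.70 log2 units in TSR mice and 6.01, 6.18 and 6.22 in CON mice and rose by 0.88 ± 0.15 (adjusted p = 0.00102). Serping1, the inhibitor of complement C1, rose by 0.82 ± 0.13 and Cd59a, which blocks the terminal complex, by 0.57 ± 0.14.

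In iron handling 3 of 11 rose and 0 fell: Trf, transferrin, had 10.49, 10.48 and 7.99 log2 units in TSR mice and 10.05, 9.89 and 9.91 in CON mice and rose by 0.54 ± 0.08 (adjusted p = 0.000232), its receptor Tfrc by 0.49 ± 0.08, and Aco1, which acts as an iron sensor, by 0.21 ± 0.06. Trf is also in the oligodendrocyte list, and over all genes 6.99% rose and 3.12% fell. Of 13 endothelial genes 3 rose, the transporters Slco1a4 (0.72 ± 0.17), Abcg2 (0.48 ± 0.15) and Mfsd2a (0.31 ± 0.09), and 1 fell, but none of the list passed without TSR replicate 1, TSR replicate 2 or CON replicate 1. Of these 21 genes, 13 still passed without TSR replicate 1, 13 without TSR replicate 2, and 16, 18 and 16 without CON replicate 1, 2 and 3. Including the narrow arrays turned the sign of the difference in 8 of these 21.

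Genes of protein and RNA handling had calls in both directions, and over all genes 6.99% rose and 3.12% fell. Of 33 proteasome genes 5 rose and 0 fell. Psmc5, an ATPase of the cap, had 10.08, 10.13 and 7.65 log2 units in TSR mice and 9.58, 9.58 and 9.55 in CON mice and rose by 0.53 ± 0.08 (adjusted p = 0.000258), Psmc4 by 0.30 ± 0.09, Psmc2 by 0.29 ± 0.09 and Psmb1, a core subunit, by 0.32 ± 0.09. Psmb4, another core subunit, had 9.30, 9.27 and 9.22 log2 units in TSR mice and 9.11, 9.08 and 8.98 in CON mice and rose by 0.22 ± 0.06 (adjusted p = 0.0287). It was the one of these 5 in which all TSR values lay above all CON values. The proteasome count was 1 without TSR replicate 1, TSR replicate 2 or CON replicate 3, and 2 without CON replicate 1.

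Of 53 cytosolic ribosomal protein genes, whose many processed copies can share probes, 6 rose and 1 fell. Rps28 had 8.82, 8.77 and 8.60 log2 units in TSR mice and 8.51, 8.31 and 8.28 in CON mice and rose by 0.43 ± 0.09, Rps4x by 0.43 ± 0.08, Rpl28 by 0.32 ± 0.08, Rpl27 by 0.30 ± 0.08 and Fau by 0.27 ± 0.06, and Rpl10 fell by 0.23 ± 0.05. After quantile normalization 6 rose and 4 fell. Of 54 mitochondrial ribosomal protein genes 5 rose, with Mrpl20 at 0.54 ± 0.12, and 1 fell, Mrpl12 (0.41 ± 0.12), shares near those over all genes. Quantile normalization gave 2 higher and 1 lower for that list. Translation factors had 0 of 25 called in the limma fit and 7 at an unadjusted p under 0.05.

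In splicing and RNA binding 6 of 32 rose and 1 fell, and 7 and 3 after quantile normalization. Beside Cirbp and Rbm3 the higher genes included Son, a speckle protein (0.45 ± 0.10), Snrnp70, a protein of the U1 particle (0.38 ± 0.09), and Nono (0.29 ± 0.06), and Tra2a, a splicing activator, had 8.85, 8.76 and 8.26 log2 units in TSR mice and 9.33, 9.31 and 9.21 in CON mice and fell by 0.48 ± 0.09 (adjusted p = 0.00142). Of 21 small noncoding RNAs 2 rose and 2 fell. Snord14e, a guide of ribosomal RNA methylation, had 8.56, 8.46 and 7.60 log2 units in TSR mice and 7.26, 7.61 and 7.34 in CON mice and rose by 1.11 ± 0.11 (adjusted p = 4.16e-06), Snora3 rose by 0.38 ± 0.11, and Rnu12, an RNA of the minor spliceosome, fell by 0.48 ± 0.09. Of 27 chromatin genes 4 rose and 1 fell: Kmt2a and Ep300, which write activating histone marks, rose by 0.35 ± 0.06 and 0.37 ± 0.09, Hdac3 and Sirt2, both deacetylases, by 0.25 ± 0.07 and 0.33 ± 0.06, and Hdac11, a further deacetylase, fell by 0.44 ± 0.08. After quantile normalization 4 chromatin genes rose and 4 fell, and after centring on medians 3 and 4. Imprinted genes had 2 of 20 higher and 2 lower, and Rian, a long noncoding RNA, had 9.50, 9.41 and 8.92 log2 units in TSR mice and 9.84, 9.97 and 9.94 in CON mice and fell by 0.46 ± 0.07 (adjusted p = 0.000373), as did its neighbour Dlk1, by 0.31 ± 0.08. Without TSR replicate 1 the cytosolic ribosomal list had 1 higher and the splicing list 2, and both had 2 without TSR replicate 2. Leaving out TSR replicate 1 or 2 kept 12 and 12 of these 29 calls, and leaving out CON replicate 1, 2 or 3 kept 20, 25 and 21. In 14 of the 29, the difference had the opposite sign with all arrays.

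The last comparison asked whether the difference at ZT1 departed from the mean of the differences at ZT7, ZT13 and ZT19, each with 3 TSR and 3 CON arrays. With all arrays 6 genes passed (0.0505%), all of them lower at ZT1 relative to the other times, and 1416 had an unadjusted p under 0.05. Without the narrow arrays, where CON at ZT19 keeps 1 array and TSR at ZT13 keeps 2, 2332 of 11871 genes passed (19.6%). This test and the ZT1 comparison both hold the ZT1 difference, so the overlap of their calls is largely built in and is not read. The count was 1168 without TSR replicate 1 of ZT1 and 1321 without TSR replicate 2.

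The 6 genes were Meis2, Slc5a7, Foxp2, Tcf7l2, Dach1 and Kcnv1, and their differences are given here without the narrow arrays. Meis2 differed by -0.88 ± 0.10 at ZT1 and by 2.09, 0.14 and 1.97 at ZT7, ZT13 and ZT19. Slc5a7, the choline transporter of cholinergic neurons, had 8.67, 8.66 and 6.18 log2 units in TSR mice and 8.61, 8.40 and 8.19 in CON mice at ZT1, a difference of 0.27 ± 0.13 that did not pass (adjusted p = 0.183), against 3.16, 1.85 and 1.90 at ZT7, ZT13 and ZT19. Foxp2, a factor of thalamic and other projection neurons, differed by -0.41 ± 0.09 and by 1.28, 0.97 and 1.27 at ZT7, ZT13 and ZT19. Tcf7l2 differed by -0.46 ± 0.09 and by 0.87, 0.35 and 0.90 at ZT7, ZT13 and ZT19. Meis2, Foxp2 and Tcf7l2 were thus below CON at ZT1 and above it at each other time, and the difference of Slc5a7 was smaller at ZT1 than at each other time. The values at ZT7, ZT13 and ZT19 were not tested singly. That of Meis2 at ZT13 was small, and those at ZT19 rest on 1 CON array. Without any 1 of the 3 CON arrays of ZT1, 0 genes passed this test with all arrays, with 882, 769 and 822 at an unadjusted p under 0.05 without CON replicate 1, 2 and 3, and 11 passed without TSR replicate 3. Quantile normalization gave 177 and median centring 131.

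Without the narrow arrays Necab1 and Robo2 were lower at ZT1 (-0.72 ± 0.07 and -0.71 ± 0.08) and higher at the other times, with Necab1 at 0.86, 0.80 and 0.77 at ZT7, ZT13 and ZT19. Scn2a, a sodium channel gene, differed by -0.34 ± 0.06 and by 0.38, 0.50 and 0.46 at ZT7, ZT13 and ZT19, but its ZT1 difference was 0.15 and did not pass when its probe sets were averaged. Of the 23 clock genes, 9 passed this test without the narrow arrays, all with a ZT1 difference above the mean of the other times, against 1303 genes above and 1029 below over all genes. Per1 differed by 0.45 ± 0.09 at ZT1 and by -0.62, -0.70 and -0.12 at ZT7, ZT13 and ZT19. Dbp differed by 0.33 ± 0.09 and by -0.81, -1.11 and -0.36 at ZT7, ZT13 and ZT19. Both were above CON at ZT1 and had negative values at each other time, which were not tested singly. That of Per1 at ZT19 was small. Cirbp differed by 0.47 ± 0.09 at ZT1 and by -0.68, -0.07 and 0.23 at ZT7, ZT13 and ZT19, and Hspa5 by -0.24 ± 0.07 and by 0.57, 0.10 and 0.14 at ZT7, ZT13 and ZT19. AY036118 and Gm10874, transcripts without a described function here, also ran against the other times, AY036118 at 0.52 ± 0.16 and then -1.30, -2.35 and -2.29 at ZT7, ZT13 and ZT19. Of the genes named here, 14 also passed the ZT1 comparison itself without the narrow arrays. That comparison, not the test between times, kept 12, 12 and 10 of these calls without CON replicate 1, 2 or 3. Without TSR replicate 1 or 2 it rests on 1 TSR array, so no count is given here. Dbp, Hspa5, AY036118 and Gm10874 were not kept in either case.

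**Figure D5:**
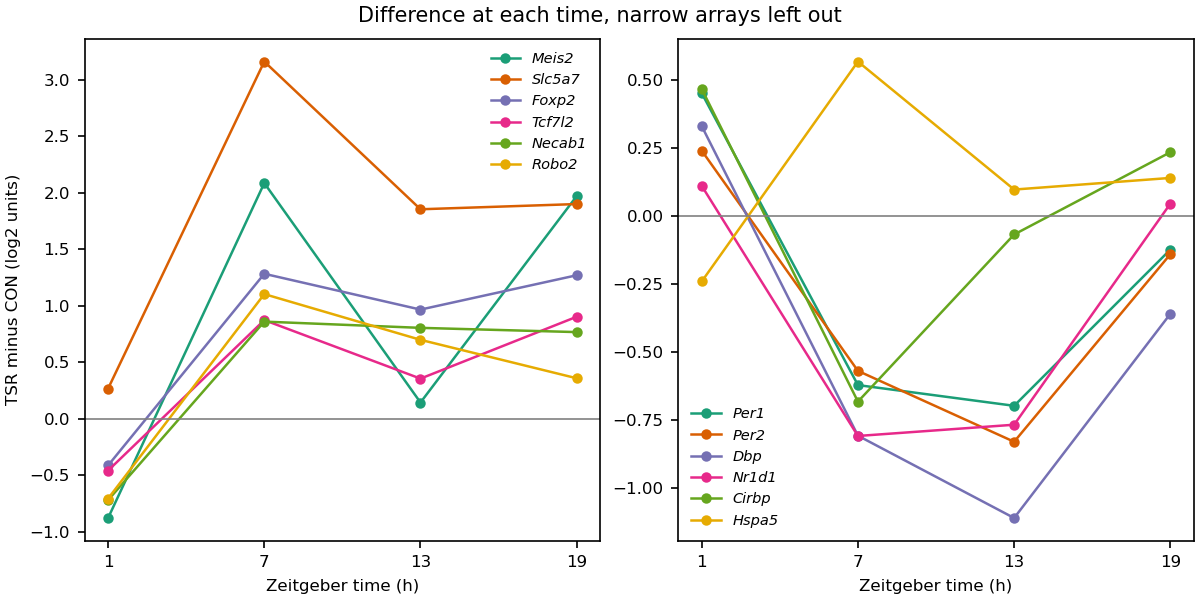
Difference of TSR minus CON in log2 units at ZT1, ZT7, ZT13 and ZT19 without the narrow arrays, for 6 regional genes (left) and for clock, cold-response and chaperone genes (right). The left genes are lowest at ZT1, where Meis2 is at -0.88, and Per1, Dbp and Cirbp are highest there, at 0.45, 0.33 and 0.47.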

How the data were processed

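Whole-transcript Affymetrix arrays measured RNA of the mediobasal hypothalamus in 24 samples, 3 for each group and time, and the 6 of ZT1 carry the comparisons here. The deposited values are on the log2 scale. They were made with Affymetrix Expression Console, per the submitters' processing notes. The sources used here give no version of that program, no normalization method and no genome build. Probe sets took gene names from the platform annotation: 21789 carried 1 symbol, 1621 several and 12146 none, and 21698 of the first matched RefSeq by Entrez number. For genes with several probe sets the one with the highest mean was kept, and genes below the 40th percentile of mean signal (5.86) were left out.

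Some deposited cells had a misplaced decimal point. In all, 2541 of 853344 cells (0.298%) were moved by a factor of 10, where that brought them nearer the median of the other arrays, and 65 cells that had lost digits were set missing. The median absolute deviation of restored cells from the other arrays was 7.16 before and 0.179 after, against 0.154 in other cells. Of the genes named, 2 have a restored value at ZT1.

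Differences were fitted with limma 3.58.1 in R 4.3.3 as 8 group means with a mean-variance trend, 2-sided, and p-values were adjusted by the Benjamini-Hochberg method over all genes tested. The fit was checked on simulated data. Every difference is given ± SE in log2 units. The design text states 3 mice per group and time, so p-values measure the spread between mice, and the number of arrays limits their precision. Alternatives were other scalings, filters, probe set rules, moderation, array weights, a replicate block, blank restored cells and leaving out single arrays.

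The genes and lists were chosen with earlier results of these data known. Genes named are every call with all arrays, the 15 largest rises and 15 largest falls without the narrow arrays that do not overlap between groups, up to 6 members of each of 83 lists by smallest p, the 10 smallest p-values of the comparison between times, and a short list of genes of feeding, clock and stress; Slc17a7 was added as a region marker. The text names fewer than these.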

Additional observations from a re-analysis of the deposited data

Results flagged for a closer look

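The difference between TSR and CON mice at ZT1 departed from the mean of the differences at ZT7, ZT13 and ZT19 in 6 genes with all arrays and in 2332 genes without the narrow arrays, by limma's test of the difference itself. The values that follow are the ZT1 difference minus the mean of the other 3 differences, in log2 units, without the narrow arrays. Among genes of regional neurons it was -2.28 for Meis2, -2.04 for Slc5a7, -1.59 for Foxp2, -1.17 for Tcf7l2, -0.99 for Dach1 and -1.34 for Kcnv1, the 6 that also passed with all arrays. Necab1 had -1.53, Robo2 -1.43 and the sodium channel gene Scn2a -0.79, although the ZT1 difference of Scn2a was 0.15 when its probe sets were averaged. The clock genes Per1 and Dbp had 0.93 and 1.09, and the cold-response gene Cirbp had 0.64. The chaperone gene Hspa5 had -0.51. The transcripts AY036118 and Gm10874 had 2.5 and 1.56. These contrasts use the arrays of ZT7, ZT13 and ZT19 as well, and CON at ZT19 rests on 1 array there.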

How the results depend on the processing

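With all arrays, the count of genes at ZT1 was 6, and it was 23 after quantile normalization, 15 after centring on medians, 19 without a filter on low values, 2 with a filter at the 60th percentile, 3 without a trend in the moderation and 3103 with array weights, which gave TSR replicate 3 a weight of 0.015. On the ZT1 arrays alone it was 0 (limma), and 144 genes had an unadjusted p under 0.05. Leaving out single ZT1 arrays gave 1 to 8 genes. Without the narrow arrays the count of 1200 ranged from 269 to 1042 over single arrays left out, and it was 2638 on the ZT1 arrays alone, 448 at adjusted p under 0.01 and 224 with a difference of at least 0.5 log2 units. For the contrast with the other times, all arrays gave 6 genes, and 177 after quantile normalization, 131 after centring on medians, 6416 with array weights and 0 to 11 over single arrays left out. Without the narrow arrays that count of 2332 ranged from 1168 to 2033 over single arrays. The cause of these shifts was not tested. Of single genes, Scn2a turned to 0.15 (limma adjusted p = 0.46) when its probe sets were averaged. Deviations of same-numbered ZT1 samples from their group means correlated at r = -0.244, 0.303 and 0.0033. Against CON replicate 2, however, TSR replicates 1, 2 and 3 gave 0.285, 0.303 and -0.301. The TSR deviations thus mostly set replicate 3 against the other TSR arrays, and they cannot decide whether replicate numbers pair the samples. With the replicate number as a block, the ZT1 counts were 4 with all arrays and 1053 without the narrow ones, and 5 and 2146 for the contrast between times. The narrow spread of TSR replicate 3 limits what 3 arrays can show.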
